A study of Mus musculus with 6 samples.

Results

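Calcium pump transcripts were followed in mouse embryonic stem cells that had lost the intact allele of Lsd1, now named Kdm1a, which encodes a demethylase of lysine 4 on histone H3. The genes were Atp2a3 and 7 relatives: Atp2a1, Atp2a2, Atp2b1, Atp2b2, Atp2b3, Atp2b4 and Atp2c1. The members were all probes whose symbol in the platform annotation, current or older, was one of these names, which gave 20 of the 45281 probes on the array and 8 of 19057 named genes. Atp2a3 was selected on its genotype difference in these same arrays, being among the most reduced signals, so its differences are given below as a description with no test. The other 7 genes were taken as its relatives, chosen by name.

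The cells were E14 embryonic stem cells, a line of mouse strain 129/Ola. In the Δ3/Δ3 cells exon 3 of Lsd1 was deleted on both alleles. The Lox/Δ3 cells, which served as the control, had 1 deleted allele and 1 allele with exon 3 between loxP sites, so every sample carried at least 1 deleted allele and none was wild type. Each genotype was measured on 3 Illumina bead arrays of total RNA. The series calls them biological replicates. Whether they were separate clones, and how the floxed allele was recombined, is not given in the sources used here, and the p-values therefore cover only the spread among these arrays, which may be technical.

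Calcium pumps are P-type ATPases, which hydrolyse ATP to move calcium ions against their gradient and form a phosphorylated intermediate in each cycle. Pumps of the Atp2a genes (SERCA) fill the endoplasmic reticulum, those of the Atp2b genes (PMCA) expel calcium through the plasma membrane, and those of the Atp2c genes (SPCA) load the Golgi with calcium and manganese. SERCA2, from Atp2a2, is the pump found in nearly all cells, whereas SERCA3, from Atp2a3, has a lower affinity for calcium and is known from blood, endothelial and epithelial cells, where it is co-expressed with SERCA2.

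The start region of Atp2a3, the gene selected on its genotype difference, is given first. It lies on chromosome 11, at chr11:72960919-72961218 on the plus strand of GRCm38.p6 in the RefSeq table, and covers 250 bases before and 50 after the annotated start. Capitals mark the GC box, GGGCGG, on either strand.
Atp2a3 start region: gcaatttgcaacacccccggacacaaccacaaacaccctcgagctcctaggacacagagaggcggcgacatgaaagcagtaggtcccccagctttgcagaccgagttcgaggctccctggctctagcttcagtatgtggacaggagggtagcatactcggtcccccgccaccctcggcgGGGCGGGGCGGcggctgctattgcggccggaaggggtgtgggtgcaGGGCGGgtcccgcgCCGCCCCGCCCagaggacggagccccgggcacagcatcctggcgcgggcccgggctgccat
The window held 5 GC boxes, 3 on the strand shown and 2 on the other, and within each strand the 2 neighbouring boxes shared a base. Its GC content was 68.3%, with 25 CpG dinucleotides. At least 1 GC box occurred in 35.7% and at least 5 in 2.71% of the 32851 start regions of this length in the table, whose median GC content was 52.7%. Among the 10 start regions of pump genes in the table, which covered 6 of the 8 genes, GC content ran between 47.7% (Atp2b4) and 79.3% (Atp2b1). GC boxes also occurred at Atp2b1 (4 and 3 in its start regions), Atp2b2 (2, 0 and 3) and Atp2c1 (4 and 0). The start regions of Atp2a1 and Atp2b4 held 0. Binding at these sequences was not measured.

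The arrays detected 18506 to 19799 probes each at a detection p under 0.05, and 19652 probes passed detection on 3 or more of the 6 and were kept for testing. Correlations between arrays of 1 genotype were 0.978 to 0.990 and those between genotypes 0.969 to 0.986. The leading principal component, with 43.9% of the variance, separated the genotypes, and Lox/Δ3 array 1 had its most extreme value. The targeted gene Kdm1a measured 10.56, 10.20 and 10.41 in Δ3/Δ3 cells, against 12.06, 11.76 and 12.01 in Lox/Δ3 cells (log2 intensity on arrays 1, 2 and 3), a fall of 2.94-fold (limma adjusted p = 0.0187). Its call was lost when any 1 Δ3/Δ3 array was dropped (limma adjusted p between 0.1002 and 0.108) and with no filter on weak probes (0.0642), while the difference stayed between -1.65 and -1.45 with 1 array dropped. Without any 1 of the Δ3/Δ3 arrays no probe of the whole array was called, so that loss was not particular to Kdm1a. Whether its probe lies in exon 3 was not examined. The stem cell markers Pou5f1, Nanog and Sox2 were detected on all 6 arrays. All 10 listed stem cell markers were kept and none (0) was called by limma, over all tested probes or at an unadjusted p under 0.05. Of all kept probes 1.15% were called and 16.4% had such a p. Their list median was -0.11, with 6 lower and 4 higher in Δ3/Δ3. The genotypes overlapped on each of these markers. Their summed linear level was 88325 to 89505 in Δ3/Δ3 cells, against 92085 to 99298 in Lox/Δ3 cells, without overlap. Dppa5a was the brightest of them.

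Atp2a3 transcript was present in both genotypes and lower in Δ3/Δ3 cells on both of its detected probes. Its brighter probe, ILMN_2688236, gave raw signals of 178.8, 148.7 and 188.7 in Δ3/Δ3 cells, against 575.5, 382.6 and 440.2 in Lox/Δ3 cells. After background correction and quantile normalization these were 6.99, 6.83 and 7.15 in Δ3/Δ3 cells and 8.78, 8.47 and 8.63 in Lox/Δ3 cells on the log2 scale. The genotypes did not overlap: the highest Δ3/Δ3 array lay more than 1 log2 unit below the lowest Lox/Δ3 array. The means were 6.99 ± 0.16 in Δ3/Δ3 cells, against 8.63 ± 0.16 in Lox/Δ3 cells (SD, n = 3 each), a difference of -1.63, or 3.11-fold lower in Δ3/Δ3. Of the 19652 kept probes, 2, this one included, had a difference as low or lower.

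The second detected probe of Atp2a3, ILMN_2900462, gave raw signals of 157.2, 109.6 and 161.8 in Δ3/Δ3 cells, against 354.4, 253.3 and 337.8 in Lox/Δ3 cells. Normalized values were 6.72, 6.13 and 6.83 in Δ3/Δ3 cells, against 8.03, 7.75 and 8.19 in Lox/Δ3 cells (log2). Array 2 was the lowest of its genotype on both probes and in both genotypes. The mean was 6.56 ± 0.38 in Δ3/Δ3 cells, against 7.99 ± 0.22 in Lox/Δ3 cells (SD, n = 3 each), a difference of -1.43, or 2.69-fold lower in Δ3/Δ3, with a wider spread among Δ3/Δ3 arrays than on the first probe. Both probes were detected on all 6 arrays, so a residual Atp2a3 signal above background remained in Δ3/Δ3 cells. They measure the same RNA of the same arrays and are no replicates of each other.

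The third Atp2a3 probe, ILMN_2638017, was detected on no array, with detection p-values from 0.254 to 0.740. Its raw signals were 62.3, 53.0 and 59.6 in Δ3/Δ3 cells, against 71.5, 63.5 and 65.2 in Lox/Δ3 cells, which is a background level, and no fold is given. All 3 probes are tied to 1 transcript accession in the platform annotation. The place of each probe on the transcript was not examined here.

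**Figure D1:**
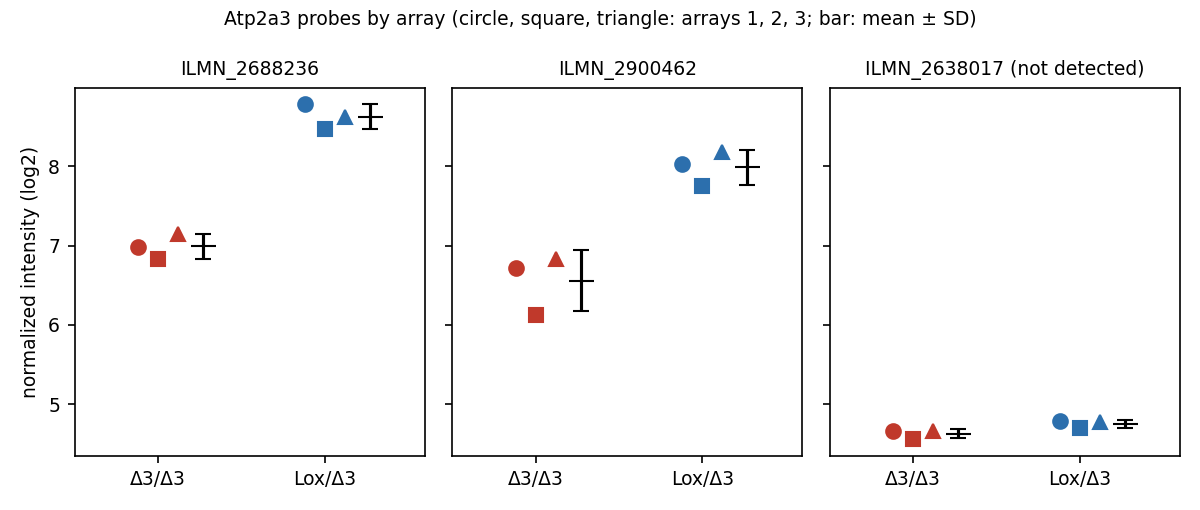
Normalized log2 intensity of the 3 Atp2a3 probes on each array (circle, square and triangle for arrays 1, 2 and 3), Δ3/Δ3 left and Lox/Δ3 right, with mean ± SD (n = 3). The 2 detected probes differ by -1.63 and -1.43 (Δ3/Δ3 minus Lox/Δ3) with no overlap, and the third stays below 5 on every array.

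Atp2a2, which encodes SERCA2, the main pump of the endoplasmic reticulum in most cells, was detected on all 6 arrays by 3 of its 4 probes. None of the 3 was called. Probe ILMN_2450031 measured 10.79, 10.77 and 11.03 in Δ3/Δ3 cells, against 10.88, 10.83 and 10.75 in Lox/Δ3 cells (log2), with Δ3/Δ3 array 3 the highest and the other values intermixed. Its difference was 0.041 (95% interval -0.26 to 0.34, limma adjusted p = 0.915).

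Probe ILMN_1245425 of Atp2a2 measured 10.38, 10.09 and 10.41 in Δ3/Δ3 cells, against 10.47, 10.33 and 10.18 in Lox/Δ3 cells, a difference of -0.034 (95% interval -0.37 to 0.30, limma adjusted p = 0.941). Probe ILMN_1239742 measured 9.86, 9.71 and 9.89 in Δ3/Δ3 cells, against 10.005, 9.89 and 9.81 in Lox/Δ3 cells, a difference of -0.083 (95% interval -0.37 to 0.20, limma adjusted p = 0.804). On the linear scale the 3 intervals together ran from 0.774-fold to 1.26-fold, and the genotypes overlapped on each probe. The signs of these small differences were mixed. The first turned to -0.080 with median scaling and the second to 0.069 without Δ3/Δ3 array 2, so no direction is given for Atp2a2. Its remaining probe, ILMN_1242459, carries no transcript accession and was detected on no array.

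Atp2a1 encodes SERCA1, the pump of fast skeletal muscle. Its single probe, ILMN_2666864, stood at the edge of detection: it was detected on Δ3/Δ3 arrays 1 and 3 and on Lox/Δ3 array 3, just enough to be kept. Values were 5.58, 5.28 and 5.65 in Δ3/Δ3 cells, against 5.28, 5.15 and 5.55 in Lox/Δ3 cells (log2), and the genotypes overlapped. The difference of 0.18 (95% interval -0.19 to 0.54) was not called (limma adjusted p = 0.647). Among the probes left out, the nearest to detection was Atp2b4 probe ILMN_3079877, whose lowest detection p was 0.135.

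Of the 4 plasma membrane pump genes, Atp2b1 and Atp2b4 had a detected probe each, and neither was called. Atp2b1 encodes PMCA1, the widely expressed plasma membrane pump. Its probe ILMN_2878021 measured 6.93, 6.76 and 6.73 in Δ3/Δ3 cells, against 7.02, 6.99 and 6.90 in Lox/Δ3 cells (log2). Of the Δ3/Δ3 arrays, 2 lay below all Lox/Δ3 arrays, and array 1 lay among them. The difference was -0.16 (95% interval -0.45 to 0.12, limma adjusted p = 0.570), which spans 0.734-fold to 1.09-fold.

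Atp2b4 encodes PMCA4. Its detected probe ILMN_1217742 measured 6.42, 6.18 and 6.06 in Δ3/Δ3 cells, against 6.23, 6.17 and 5.96 in Lox/Δ3 cells, with overlap, and a difference of 0.10 (95% interval -0.23 to 0.43, limma adjusted p = 0.795). The other 2 Atp2b4 probes were detected on no array. Atp2b2 and Atp2b3 encode PMCA2 and PMCA3, which are known chiefly from neurons and, for PMCA2, from the hair cells of the inner ear. None of the 4 probes of Atp2b2 and none of the 2 of Atp2b3 was detected on any array (0 of 6), with normalized means between 4.47 and 4.75 in Δ3/Δ3 cells, against between 4.48 and 4.72 in Lox/Δ3 cells.

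Atp2c1 encodes SPCA1, the calcium and manganese pump of the Golgi. Its detected probe ILMN_1252963 measured 7.04, 6.99 and 7.02 in Δ3/Δ3 cells, against 7.03, 7.10 and 6.97 in Lox/Δ3 cells, and the genotypes overlapped almost wholly. The difference was -0.018 (95% interval -0.29 to 0.25, limma adjusted p = 0.962), or 0.821-fold to 1.19-fold. This is the narrowest interval among the tested pump probes, with a standard error of 0.12. The second Atp2c1 probe was detected on no array. The gene of the other Golgi pump, Atp2c2, which was no member, likewise had a single probe detected on no array.

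**Figure D2:**
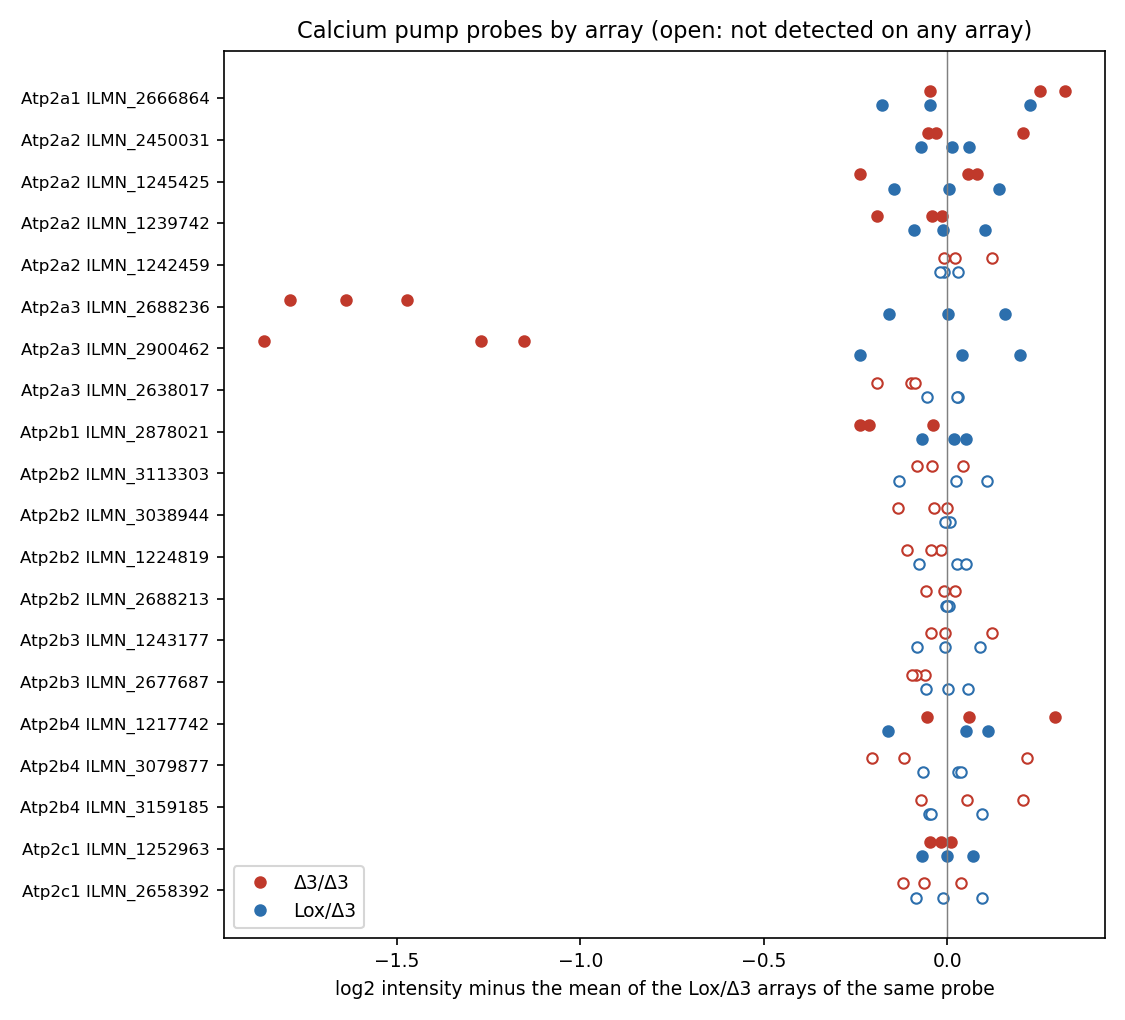
Log2 intensity of all 20 pump probes on each array, minus the mean of the Lox/Δ3 arrays of the same probe, with Δ3/Δ3 arrays (red) above Lox/Δ3 arrays (blue) and open points for the 11 probes detected on no array. The Δ3/Δ3 points of the 2 detected Atp2a3 probes stand far to the left, and the Δ3/Δ3 and Lox/Δ3 points of the 7 other detected probes overlap.

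Across the 8 genes, 9 of the 20 probes were kept and 11 were detected on no array, and all of the kept probes were detected on 6 arrays except that of Atp2a1. Apart from Atp2a3, 0 of 7 kept probes were called by limma, and 0 had an unadjusted p under 0.05. In the whole comparison 226 of 19652 probes were called, 1.15%. Of these calls 49, or 0.249% of the probes, were lower in Δ3/Δ3 and 177, or 0.901%, higher. For 0 of the 7 probes did the arrays of the genotypes not overlap, where 22.2% of all kept probes did not overlap. Their median difference was -0.018, against -0.025 over all kept probes, and 4 of the 7 were lower, against 53.9% of all kept probes. The signs of Atp2a2 probe ILMN_2450031 and of Atp2c1 flipped under another scaling. These values are near the background, and the intervals still allow changes of up to 1.46-fold upward (Atp2a1) and to 0.734-fold downward (Atp2b1).

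**Figure D3:**
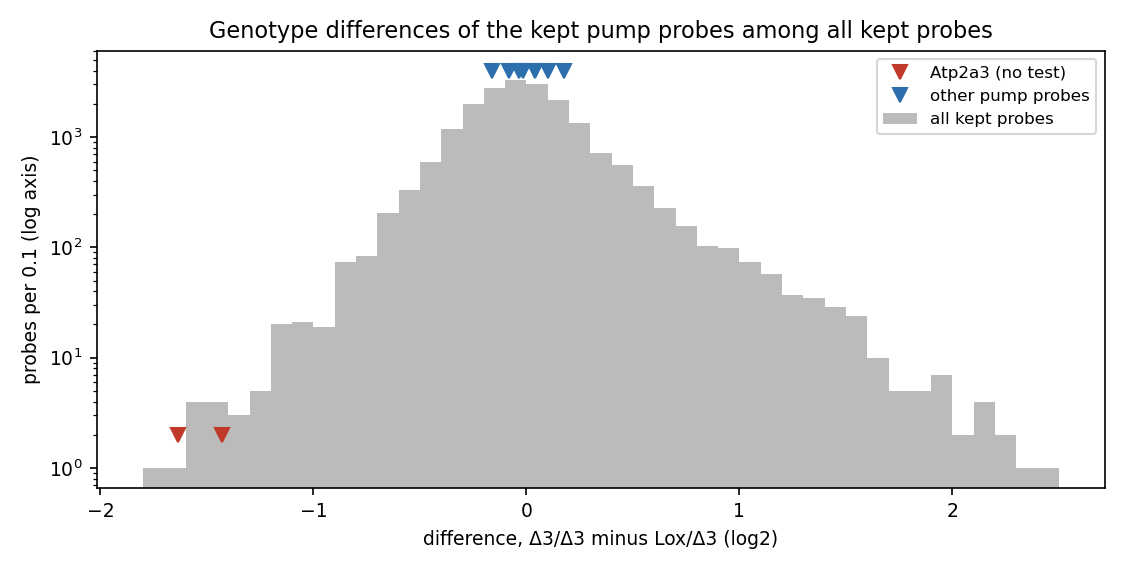
Difference between genotypes, Δ3/Δ3 minus Lox/Δ3 (log2), for all 19652 kept probes (grey, probes per bin of 0.1, log axis) and for the 9 kept pump probes (triangles, whose height has no meaning). The Atp2a3 probes at -1.63 and -1.43 lie in the lower tail, and the 7 others lie between -0.16 and 0.18.

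Proteins that regulate or partner the pumps showed no call, where 1.15% of all kept probes were called. Of 11 listed SERCA regulators 7 were on the array and 5 were tested, and 0 were called. Phospholamban (Pln) and sarcolipin (Sln), the small membrane proteins that inhibit SERCA in muscle, were detected on no array. Vmp1, a membrane protein of the endoplasmic reticulum that modulates SERCA activity, was at 0.076 (log2 difference, limma adjusted p = 0.811). Hrc, a calcium-binding protein of the muscle reticulum, was at 0.12 (limma adjusted p = 0.826). Among 5 tested genes of a list of PMCA partners, calmodulin and related calcium-binding proteins 0 were called. The calcium-binding protein sorcin (Sri) was at 0.23 and the calmodulin-like gene Calml4 at -0.36 (limma adjusted p = 0.497 and 0.563). In the list of Golgi calcium proteins, with 3 tested genes and 0 calls, Nucb1 and Sdf4, both Golgi calcium-binding proteins, were each at -0.27 (limma adjusted p = 0.365 and 0.492).

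Routes by which calcium leaves or enters the store that SERCA fills gave no call either, where 1.15% of all kept probes were called. Of 8 tested release genes, Ryr3, a ryanodine receptor channel of the endoplasmic reticulum, had the smallest p. It measured 6.86, 6.49 and 6.65 in Δ3/Δ3 cells, against 6.14, 5.83 and 5.74 in Lox/Δ3 cells (log2), with no overlap, a difference of 0.76 ± 0.16 (SE) that missed the threshold (limma adjusted p = 0.0635). Tmbim6, which encodes a membrane protein of the reticulum that lowers its calcium load, was at -0.32 (limma adjusted p = 0.269). The inositol trisphosphate receptor genes Itpr2 and Itpr3 were at 0.50 and 0.13 (limma adjusted p = 0.314 and 0.793). Of 9 tested genes of store-operated entry, the channel gene Trpc1 was at 0.79 (limma adjusted p = 0.237) with overlapping arrays, and Orai3, which encodes a pore subunit of the entry channel, at -0.29 (limma adjusted p = 0.336). The list medians were 0.16 for release and 0.049 for entry.

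Exchangers and mitochondrial uptake were examined next. Of 9 sodium/calcium exchanger genes 2 were tested, Slc8b1, the exchanger that releases calcium from mitochondria, at 0.080 and Slc24a1 at -0.037 (limma adjusted p = 0.842 and 0.945), and 5 were detected on no array. Of 7 tested genes of mitochondrial calcium uptake 0 were called and 3 had an unadjusted p under 0.05, all lower in Δ3/Δ3. Of all kept probes 1.15% were called and 16.4% had such a p. Mcu, the pore of the mitochondrial uniporter, measured 6.06, 5.77 and 6.16 in Δ3/Δ3 cells, against 6.44, 6.30 and 6.61 in Lox/Δ3 cells (log2), a difference of -0.45 that was not called (limma adjusted p = 0.194). Letm1, an ion exchanger of the inner mitochondrial membrane, was at -0.43 (limma adjusted p = 0.151). The list's median was -0.051.

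Further groups are given by their medians: calcium-binding proteins of the reticulum at 0.060 over 7 tested genes, voltage-gated channels at 0.057 over 7, and calcineurin, NFAT and calmodulin-dependent kinases at 0.087 over 14, each with 0 calls. Rcn3, a calcium-binding protein of the secretory pathway, was at 0.41 and Pdia3, a folding enzyme of the reticulum, at -0.23 (limma adjusted p = 0.316 and 0.736). The channel subunits Cacnb4 and Cacnb1 were at -0.22 and 0.083 (limma adjusted p = 0.493 and 0.798). Ppp3cc, a catalytic subunit of the calcium-activated phosphatase calcineurin, was at 0.35, and Rcan1, a calcineurin inhibitor, at 0.43 (limma adjusted p = 0.233 and 0.242). In all, 67 of the 119 genes on these 10 calcium lists were tested. By limma 0 were called, against 1.15% of all kept probes. An unadjusted p under 0.05 was found for 8, or 11.9%, against 16.4% of all kept probes. For 11, or 16.4%, the genotypes did not overlap, against 22.2% of all kept probes. Their median difference was 0.057, with 40 higher and 27 lower in Δ3/Δ3.

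**Figure D4:**
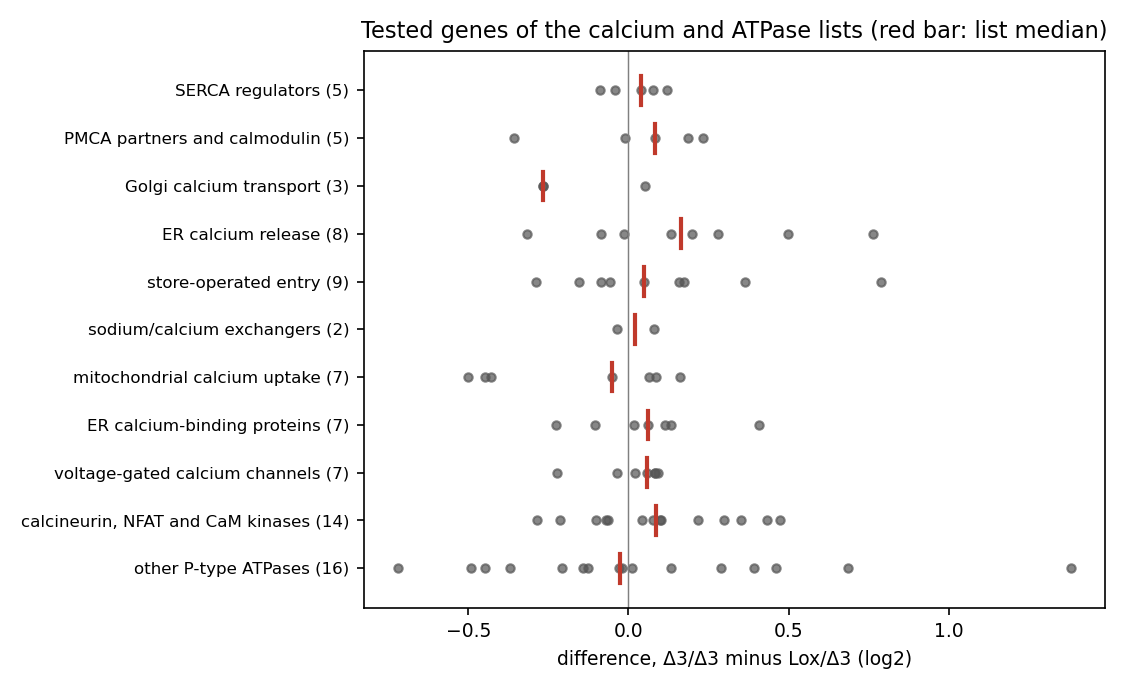
Difference between genotypes, Δ3/Δ3 minus Lox/Δ3 (log2), for the tested genes of the 10 calcium lists and of the other P-type ATPases (points, 1 probe per gene, number tested in brackets) with each list's median (red bar). The list medians lie between -0.27 and 0.16, and no gene shown was called.

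No tested gene beside Atp2a3 on chromosome 11 was called. Of the 10 genes on each side in RefSeq order, 11 were on the array and 10 were tested. By limma 0 were called, and 1 had an unadjusted p under 0.05. Of all kept probes 1.15% were called and 16.4% had such a p. Their differences ran from -0.35 to 0.88 with a median of -0.11, and 7 of 10 were lower. For 4 of the 10 the genotypes did not overlap, Ankfy1, Ncbp3 and P2rx5 being lower and Itgae higher, where 22.2% of all kept probes did not overlap. The nearest tested gene on one side, Zzef1, was at -0.32 (95% interval -0.71 to 0.074, limma adjusted p = 0.406). The nearest on the other side, Ncbp3, which encodes an mRNA cap-binding subunit, was at -0.29 (95% interval -0.60 to 0.017, limma adjusted p = 0.331). Directly next to Atp2a3 lies P2rx1, the gene of an ATP-gated calcium-permeable channel, which was on the array but below the detection filter. Itgae, the integrin alpha E gene, chosen for naming after its value was seen, pointed the other way, at 9.01 ± 0.079 in Δ3/Δ3 cells, against 8.14 ± 0.32 in Lox/Δ3 cells (log2, SD, n = 3 each), a difference of 0.88 that missed the threshold (limma adjusted p = 0.0597). It passed when Lox/Δ3 array 3 was dropped (limma adjusted p = 0.0315), and with array weights (0.0173). Over the alternatives its adjusted p ran from 0.0173 to 0.174.

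**Figure D5:**
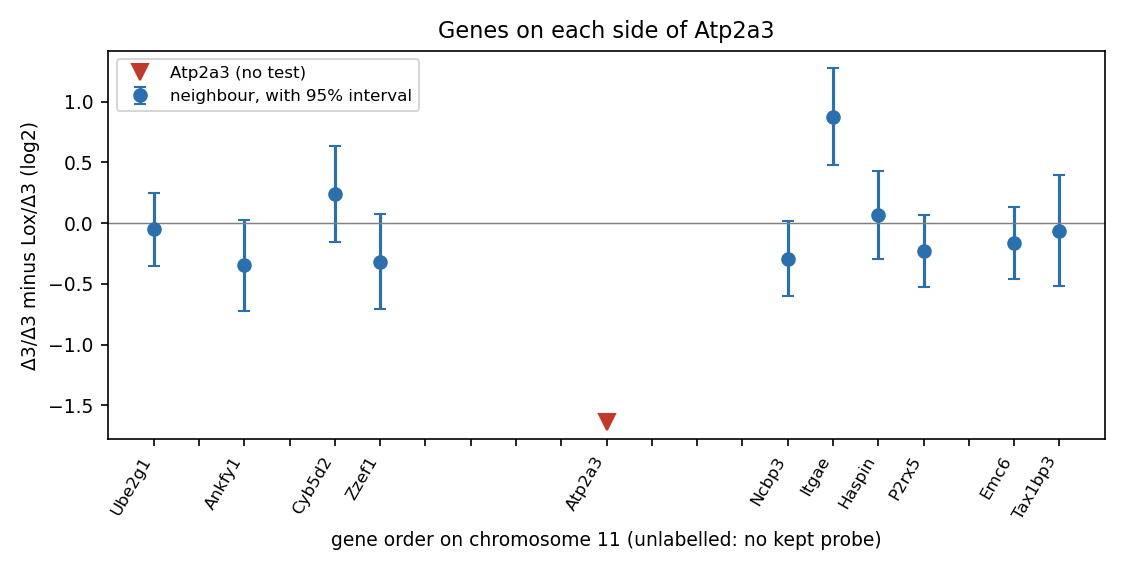
Difference between genotypes, Δ3/Δ3 minus Lox/Δ3 (log2), for the tested genes among the 10 on each side of Atp2a3, in gene order, with the 95% interval of limma (n = 3 arrays per genotype). Atp2a3 lies at -1.63, and the 10 tested neighbours lie between -0.35 and 0.88.

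Kept probes with a gene symbol were ranked by Pearson's r with the brighter Atp2a3 probe over the 6 arrays, at 1 probe per gene. The most alike, outside Atp2a3, were those of Dlgap5 (0.998), Tab1 (0.998), Adamts6 (0.994), Trappc9 (0.993) and Kdm1a itself (0.993). The other detected Atp2a3 probe had an r of 0.972. These are descriptions over 6 arrays that fall into 2 genotypes, and each of these probes shared a gap between genotypes. The gaps differed in size, at -0.63 for Dlgap5, which encodes a protein of the mitotic spindle, -0.30 for Tab1, -0.21 for Adamts6 and -0.34 for Trappc9, against -1.56 for Kdm1a.

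Markers of blood and endothelial cells, known for SERCA3, and of muscle, known for SERCA1, were examined beside these values. The reason is that in a bulk sample fewer cells of a type and less RNA per cell cannot be told apart. Epithelial markers were not examined. Of 12 blood and platelet markers 4 were tested and 0 called, where 1.15% of all kept probes were called. Their summed linear level was 260 to 321 in Δ3/Δ3 cells, against 237 to 253 in Lox/Δ3 cells. Ptprc, Gata1, Pf4, Gp1bb, Tal1 and Hba-x were detected on no array, while Lmo2 was at 0.61, Itga2b at 0.24, Hbb-bh1 at -0.20 and Cd34 at -0.22 (limma adjusted p from 0.127 to 0.575), with a list median of 0.022. Of 10 endothelial markers 6 were tested, with a summed level of 2954 to 3183 in Δ3/Δ3 cells, against 2125 to 3228 in Lox/Δ3 cells, and Kdr, Tie1 and Cd93 were detected on no array. Nos3, the endothelial nitric oxide synthase gene, fell 2.29-fold (limma adjusted p = 0.0338). Of the others tested, Tek, Pecam1, Vwf and Flt1 were higher and Egfl7 lower, with Tek at 0.81 without overlap, Pecam1 at 0.38 and Vwf at 0.48 (limma adjusted p = 0.151, 0.294 and 0.349), and the median of the list was 0.32. Nos3 measured 5.95, 5.68 and 5.88 in Δ3/Δ3 cells, against 7.18, 7.20 and 6.70 in Lox/Δ3 cells. Of 8 tested muscle markers Tnni2, a fast muscle troponin gene, rose 2.58-fold (limma adjusted p = 0.0383), the others were not called, and the list had a median of 0.22 with 6 higher and 2 lower. The lower ones were the skeletal muscle actin gene Acta1 at -1.72 and the titin gene Ttn at -0.80, both without overlap (limma adjusted p = 0.140 and 0.205). Tnni2, Actn2 at 0.56 and Myh6 at 0.41 were higher, also without overlap (limma adjusted p = 0.220 for Actn2 and 0.258 for Myh6). By limma 1 of 4 tested blood, 3 of 6 endothelial and 5 of 8 muscle markers had an unadjusted p under 0.05. Of all kept probes 16.4% had such a p, and 22.2% did not overlap. The summed muscle level was 1619 to 1890 in Δ3/Δ3 cells, against 1460.0 to 1888 in Lox/Δ3 cells. Myod1, Myh7, Ckm and Nkx2-5 were detected on no array. The calls of Nos3 and Tnni2 were both lost when any 1 Δ3/Δ3 array was dropped (limma adjusted p between 0.104 and 0.121), as was every other call of the whole array. Dropping array 1 of Lox/Δ3 gave 0.0743 for Nos3 and 0.0660 for Tnni2, and dropping its array 2 gave 0.0588 and 0.0534. With no filter on weak probes they were 0.115 and 0.129.

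Of 10 markers of fibroblasts, the usual feeder cells of stem cell cultures, 4 were tested and 0 called, against 1.15% of all kept probes. Their summed level was 3516 to 4591 in Δ3/Δ3 cells, against 2060 to 2866 in Lox/Δ3 cells, with no overlap. Mmp2 was the brightest of the 4 in both genotypes. By limma 2 of the 4 had an unadjusted p under 0.05, where 16.4% of all kept probes had such a p. Thy1 was at 1.61 and Mmp2 at 0.97 (limma adjusted p = 0.0505 and 0.0606), both without overlap, where 22.2% of all kept probes did not overlap. Fbln1 was at 0.32 with overlap (limma adjusted p = 0.470). The collagen gene Col1a1, detected on all 6 arrays, was at -0.67 (limma adjusted p = 0.615). The collagen genes Col1a2 and Col3a1 and the matrix genes Postn, Lum and Dcn were detected on no array. Primitive endoderm markers, 11 of 12 tested with 0 calls, summed to 7087 to 9693 in Δ3/Δ3 cells, against 6636 to 24606 in Lox/Δ3 cells, the highest from Lox/Δ3 array 3. In that list Sox7 was at -1.09 and Gata4 at -0.27 (limma adjusted p = 0.281 and 0.376), and Foxa2 was detected on no array. Its median was -0.30, with 9 lower and 2 higher, Dab2 being at 0.42 (limma adjusted p = 0.761). The difference of the brighter Atp2a3 probe was -1.63 with all arrays and between -1.72 and -1.54 (log2) when any 1 array was left out. The part of these other cell types in the Atp2a3 values was not tested.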

How the data were processed

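Total RNA of 6 cell samples, 3 per genotype, was hybridised to Illumina bead arrays after Trizol extraction, column clean-up with DNase and biotin labelling, per the labels' protocols. The deposited files are a table of intensity values that were not normalized, with a detection p-value beside each, and a value table from the authors, of intensity values that are the same signals times 1 constant per array. The sources used here give neither scanner software nor slides. Number of columns of other samples unused: 0. Probe names come from the platform annotation, updated through a RefSeq gene table of GRCm38.p6: 34885 of 45281 probes had 1 symbol, 18 several and 10378 none. Of the single-symbol probes 34807 matched.

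Signals were corrected with limma's nec (offset 16, background from detection p-values), quantile normalized and taken to log2. Probes detected on at least 3 of 6 arrays were kept. Each kept probe was tested with limma (lmFit, eBayes, two-sided, genotype as the single term), adjusted with Benjamini-Hochberg over 19652 probes, with a call at an adjusted p under 0.05. The offset pulls folds of weak probes toward 1. A gene on a list is represented by its kept probe with the highest mean. An exact permutation test of 3 against 3 cannot go below 0.1 and was not used. Quantile normalization and the fit were checked on data simulated on the log2 scale. That check did not cover the background correction, the detection filter or differences as small as those of the pump probes other than Atp2a3. Named were all members, the nearest tested genes beside Atp2a3, the 5 genes with a symbol whose probes were most like it, Kdm1a and 3 stem cell genes. From each list up to 3 called genes, or else the 2 with the smallest p, were named too. Itpr2, Itpr3, Itgae, Ankfy1, P2rx5 and further blood, endothelial, muscle, fibroblast and primitive endoderm markers were added after their values were seen. The members and lists were chosen with earlier results of these data known. R 4.3.3, limma 3.58.1, Python 3.11.15 and matplotlib 3.10.9 were used. Start regions are RefSeq's. Protein and probe sequences were not used here.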

Additional observations from a re-analysis of the deposited data

How the results depend on the processing

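Under all 16 alternatives 0 of the tested pump probes other than those of Atp2a3 were called. Without any 1 of the Δ3/Δ3 arrays no probe of the whole array was called, so there this count was fixed at 0. The brighter Atp2a3 probe stayed lower in Δ3/Δ3 throughout, at -1.34 without background correction, -1.41 with an offset of 50, -1.38 with the authors' values, and between -1.72 and -1.54 when any 1 array was left out. The second detected probe, ILMN_2900462, at -1.43 in the main fit, also stayed lower. It was at -1.08 without background correction, -1.16 with an offset of 50 and -1.10 with the authors' values. With 1 array left out it was between -1.57 and -1.22. Differences near 0 changed sign. Atp2a2 probe ILMN_2450031 was at -0.080 with median scaling, -0.057 with the authors' values and between -0.042 and 0.089 with 1 array left out. Atp2a2 probe ILMN_1245425 was between -0.11 and 0.069 with 1 array left out. Atp2c1 was at 0.033 with cyclic loess and between -0.051 and 0.017 with 1 array left out. The number of probes called over the whole array, 226, was 7 with no filter on weak probes, 113 with detection required on all 6 arrays, 140 with 1 probe per gene, 674 with array weights and 0 to 401 with 1 array left out, being 0 without any 1 of the Δ3/Δ3 arrays (with 2613 to 3109 probes at an unadjusted p under 0.05) and 44, 59 and 401 without Lox/Δ3 array 1, 2 and 3. The cause was not tested. With the replicate block 601 probes were called, 2 genes of the calcium lists (Ryr3 and Trpc1) and 1 neighbour of Atp2a3 (Itgae). With 1 array left out the lists gave 0 calls in every case and the neighbours 0 to 1. Where a Δ3/Δ3 array was left out, both counts could only be 0. Same-numbered arrays deviated together with r of 0.35, 0.055 and 0.37, arrays 1 and 3 of each genotype correlated best with their own number and array 2 of neither did, so the numbers were not taken to pair the samples. Signal over background limits Atp2a1 and the 11 undetected probes.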

Other observations

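Among the other P-type ATPases, the wider family to which the calcium pumps belong, 16 of 28 listed genes were tested. By limma 0 were called and 6 had an unadjusted p under 0.05, in both directions. Of all kept probes 1.15% were called and 16.4% had such a p. Atp10a, a phospholipid flippase gene, had the largest difference of the list. It measured 7.40, 7.60 and 7.65 in Δ3/Δ3 and 5.53, 6.91 and 6.06 in Lox/Δ3 cells (log2), without overlap but with a wide spread among Lox/Δ3 arrays, a difference of 1.38 ± 0.31 (SE) that missed the threshold (limma adjusted p = 0.0734). Atp4a, which encodes the catalytic subunit of the gastric proton pump, measured 5.36, 5.55 and 5.15 in Δ3/Δ3 and 5.99, 6.11 and 6.12 in Lox/Δ3 cells. Its difference of -0.72 ± 0.14 (SE) also missed the threshold (limma adjusted p = 0.0573), and it was detected on 4 of the 6 arrays. The list's median difference was -0.025, as over all kept probes.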
